A study of Mus musculus with 8 samples.

Results

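The inflammasome is a cytosolic protein complex in which a sensor such as Nlrp3 or Aim2 recruits the adaptor ASC, the product of Pycard, which in turn recruits and activates caspase-1. Caspase-1 cuts the precursors of interleukin-1 beta and interleukin-18 into their active forms and cuts gasdermin D, whose fragments form pores in the plasma membrane and can kill the cell by pyroptosis. In the brain the complex is best known from microglia, while interleukin-33 is an alarmin stored in the nucleus of oligodendrocytes and astrocytes that does not need caspase-1 for its activity.

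The genes described here were Pycard, Casp1, Casp4, Nlrp3, Il1b, Il18, Il33 and Gsdmd, 8 of 31053 genes in the count matrices. They were selected on their measured levels in these same libraries, so the differences between cell populations and between libraries given below are descriptions and support nothing beyond themselves. The study asked how traumatic brain injury (TBI) alters the cells of the adult hippocampal neurogenic niche, and compared the Control group, male Nestin-GFP mice with a sham craniotomy, with the TBI group, male Nestin-GFP mice with a unilateral controlled cortical impact. All mice were 8 weeks old, carried a transgene in which the Nestin promoter drives GFP, and were sampled 15 days after surgery, and only sorted GFP-positive cells of the dentate gyrus were sequenced. The labels list 4 animals in each group, whose tissue was pooled before sorting. The study's own text gives other animal numbers for this experiment. The selection by GFP means that microglia, oligodendrocytes and vascular cells are present only as far as they passed the GFP gate.

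There was therefore 1 library per condition and no replicate check of any difference between them. No test between Control and TBI was possible, the animals cannot be told apart, and the intervals below are 95% Poisson or binomial intervals that cover counting error only. After filtering, the Control library held 3049 cells with a median of 6928 UMIs (unique molecular identifiers, each marking 1 captured RNA molecule) and the TBI library 5036 cells with a median of 5663. Levels are in CPM, the UMIs of a gene summed over the cells of a population in 1 library scaled to the total UMIs of that population as counts per 1000000, with Malat1 left out of the total. Ratios are the TBI level over the Control level.

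Cells were grouped into 12 populations by clustering without the members, and 11 of them took a name from marker genes. All markers of a population were found in at least 10% of its cells, except for the Reln neuron-like cells, in which 5 of 8 were. The cluster between the early and the late neuroblasts stayed unnamed because Stmn2, a marker of more mature neurons, was among its 10 leading genes, and is called the Ebf1-led cluster after the gene that led it. The other unnamed clusters were left out of the populations. Beside a hemoglobin-led neuronal set described below, 29 Control and 84 TBI cells were nearest the endothelial class. Another 24 and 17 were nearest the oligodendrocyte class, and both sets had low UMI counts. A set of 17 TBI cells and 0 Control cells was nearest the early neuroblasts but was led by Vtn, Rgs5 and Higd1b. Vtn and Rgs5 are mural markers. The neuroblast stages are the early neuroblast-like cells (148 Control and 295 TBI cells), the Ebf1-led cluster (156 and 259 cells) and the late neuroblast-like cells (310 and 508 cells), which sum to 614 and 1062 cells. The 2 clusters of microglia-like cells held 38 Control and 88 TBI cells, and 1 of them, led by Ccl5, Tyrobp and Lyz2, had a median of only 1608 UMIs per cell.

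Pycard lies on chromosome 7 of GRCm38, chr7:127989708-127993867 on the minus strand, and codes for the adaptor. In the GENCODE annotation of that build its 5′ end is overlapped on the opposite strand by Gm45205, a provisional locus, which is not among the genes that were counted. The antisense gene Gm15533 and the coding gene Trim72 are counted neighbours. Casp1 (chr9:5298517-5307265) and Casp4 (chr9:5308828-5336783) are neighbours on the plus strand of chromosome 9. Nlrp3 is on chromosome 11, Il1b on chromosome 2, Il18 on chromosome 9, Il33 on chromosome 19 and Gsdmd on chromosome 15.

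The promoters of the adaptor and of the caspase that it recruits are shown because their genes had different patterns across the neurogenic lineage. Each sequence is the 250 bases before the transcription start, 5′ to 3′ on the gene's own strand, from RefSeq on GRCm38.p6, at chr7:127993868-127994117 (minus strand) for Pycard and chr9:5298267-5298516 (plus strand) for Casp1. The capitals mark matches to CAGCTG, a palindromic E-box of the kind bound by proneural bHLH factors, and to GAGGAA or its reverse complement TTCCTC, a core bound by ETS-family factors such as PU.1 of microglia.
Pycard: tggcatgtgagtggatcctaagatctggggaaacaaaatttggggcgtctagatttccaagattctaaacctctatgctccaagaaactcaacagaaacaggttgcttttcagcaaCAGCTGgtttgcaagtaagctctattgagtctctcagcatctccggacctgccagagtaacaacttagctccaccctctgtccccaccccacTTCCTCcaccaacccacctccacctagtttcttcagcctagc
Casp1: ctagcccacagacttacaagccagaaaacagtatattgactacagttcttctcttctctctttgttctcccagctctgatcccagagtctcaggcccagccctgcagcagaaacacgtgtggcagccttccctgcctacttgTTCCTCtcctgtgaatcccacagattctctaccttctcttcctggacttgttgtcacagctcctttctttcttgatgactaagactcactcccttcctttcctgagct
The Pycard window held 1 match to each motif and the Casp1 window 1 match to GAGGAA and none to CAGCTG. Of the 7 members with a window, Pycard alone held CAGCTG, which 13% of all 32851 windows of the same length hold, and 3 held GAGGAA, which 23.3% of all windows hold. The 7 members had 10 windows, and a member was counted when any of its windows matched. The member counts and the window shares are therefore not like for like. Both motifs were chosen after the sequences had been seen, the matches are descriptions of letters, and no factor binding was measured.

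Pycard was counted in all 12 populations. Its level was highest in the microglia-like cells, at 364 CPM in Control (69 UMIs, interval 283.5 to 461) and 272 in TBI (122 UMIs, 226 to 325). The next highest levels were those of the dividing end of the neurogenic lineage. RG-like cells, the radial glia-like progenitors that express Mcm3 and Ung, stood at 61.2 CPM in Control (125 UMIs, 50.9 to 72.9) and 51.4 in TBI (128 UMIs, 42.9 to 61.1). Cycling progenitor-like cells stood at 47.1 (135 UMIs, 39.5 to 55.8) and 38.3 (78 UMIs). These 2 populations contributed 43.5% of all 1072 Pycard UMIs and the microglia-like cells, which were fewer, 17.8%.

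Microglia and RG-like cells were the first and second of the 12 populations in both libraries, and their intervals did not overlap in either. The microglial level was 5.96 times that of the RG-like cells in Control (4.37 to 8.06) and 5.29 times in TBI (4.10 to 6.84). The RG-like and cycling progenitor-like intervals overlapped in both libraries, and the RG-like level was 1.30 times the cycling level in Control (1.01 to 1.67) and 1.34 times in TBI (1.005 to 1.80). From the fourth place down, the Control levels lay between 10.5 CPM in endothelial-like cells and 0.702 in oligodendrocyte-like cells, and every neighbour in that order had an overlapping interval. In TBI the oligodendrocyte-like cells were again last, at 1.81 CPM (16 UMIs, 1.04 to 2.95), and their interval lay below that of the OPC-like cells, the oligodendrocyte precursors, above them. As background, 6.83% of the 13128 genes with at least 100 UMIs were highest in the microglia-like cells in both libraries, and Pycard is 1 of them.

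**Figure D1:**
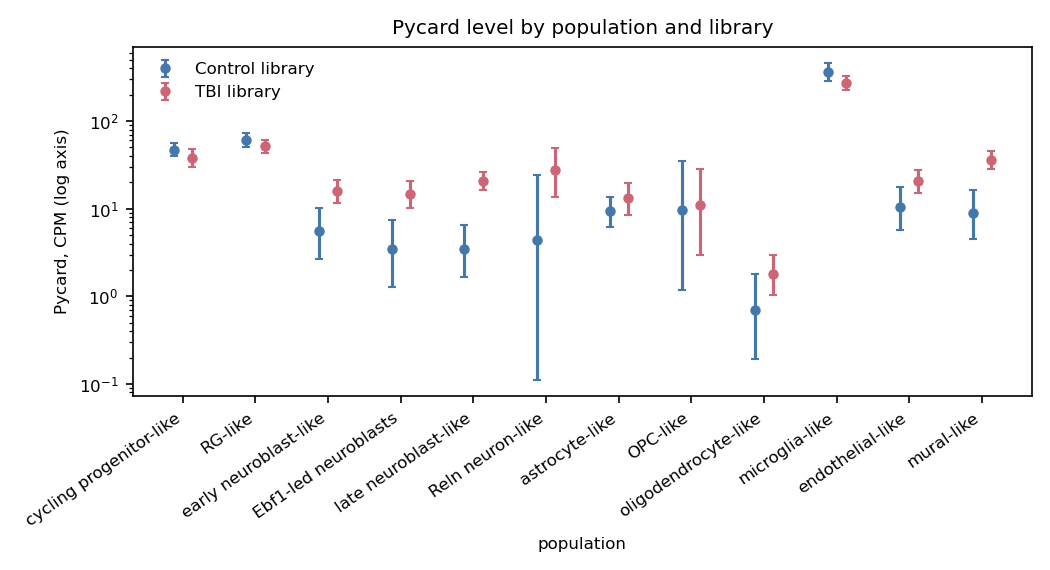
Pycard in CPM (log axis) in each of 12 populations (horizontal axis), with the Control library in blue and the TBI library in red. Points are levels in 1 library each and bars are 95% Poisson intervals of counting error. The TBI point lies above the Control point in every population except RG-like, cycling and microglia-like cells, where it lies slightly below. Among those above, the ratio of TBI to Control was 1.42 in astrocyte-like cells (0.784 to 2.55) and 1.12 in OPC-like cells (0.161 to 12.4).

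Within the lineage, leaving out the unnamed hemoglobin-led cells described below, the Pycard level was highest in S-phase and RG-like cells in both libraries. The cycling cells led by histone genes, which mark S phase, had 65.3 CPM in Control (100 UMIs) and 53.9 in TBI (53 UMIs). The cycling cells led by Cdc20 and Ccnb1, which mark mitosis, had 26.2 (35 UMIs) and 23.7 (25 UMIs). The early neuroblast-like cells, which express Eomes, had 5.56 CPM in Control (10 UMIs) and 15.95 in TBI (45 UMIs). The RG-like level was thus 11 times the early neuroblast level in Control (5.79 to 23.5) and 3.22 times in TBI (2.28 to 4.63). These clusters were made from the same cells, so the steps between them describe the lineage and carry no test.

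Among the same lineage clusters Aim2, a sensor that binds double-stranded DNA, was also highest in S-phase and RG-like cells in both libraries. Outside the lineage Aim2 was higher in the microglia-like cells, at 158 CPM in Control and 98.1 in TBI. It had 50.3 CPM in the S-phase cells of Control and 50.9 in those of TBI, 53.3 and 52.2 in the RG-like cells, and 13.5 and 14.2 in the mitotic cells. It then stood at 18.3 CPM in the early neuroblast-like cells of Control and 16.3 in those of TBI. In the neuroblast stages summed it was 9.86 in Control (63 UMIs) and 9.76 in TBI (84 UMIs), a ratio of 0.989 (0.705 to 1.39). Its ratio was 0.757 in the Ebf1-led cluster (17 and 16 UMIs) and 1.33 in the late neuroblast-like cells (13 and 22 UMIs), each with an interval that includes 1.

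**Figure D2:**
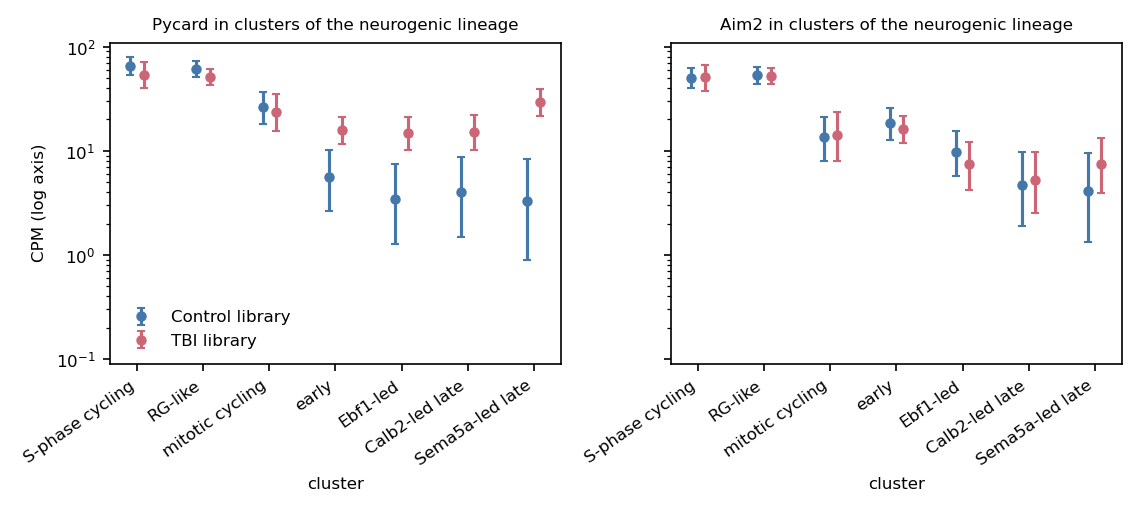
Pycard (left) and Aim2 (right) in CPM (log axis) in 7 clusters of the neurogenic lineage, in the order S-phase, RG-like and mitotic cells, then early to late neuroblasts, with Control in blue, TBI in red and 95% Poisson intervals as bars. Pycard in TBI stays at 14.8 to 29.5 CPM over the 4 neuroblast clusters, whereas Pycard in Control lies between 3.29 and 5.56 there. The Aim2 intervals of the libraries overlap in every cluster.

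In the neuroblast stages Pycard was higher in the TBI library. Over the stages summed it had 26 UMIs in Control, 4.07 CPM (2.66 to 5.97), and 153 UMIs in TBI, 17.8 CPM (15.1 to 20.8). The ratio of TBI to Control was 4.37 (2.87 to 6.90). It was 2.87 in the early neuroblast-like cells (1.43 to 6.39), 4.29 in the Ebf1-led cluster (6 and 32 UMIs, 1.77 to 12.55) and 5.97 in the late neuroblast-like cells (10 and 76 UMIs, 3.08 to 12.95). The intervals of the 3 stages overlap, so the order of the 3 ratios could not be told from counting error.

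The late neuroblast-like cells were made of 3 clusters. In the cluster led by Calb2 and Neurod2, Pycard had 4.02 CPM in Control (6 UMIs) and 15.3 in TBI (29 UMIs). In the cluster led by Sema5a, Gal and Col12a1 it had 3.29 in Control (4 UMIs in 133 cells) and 29.5 in TBI (47 UMIs in 230 cells), the highest ratio of any named neuronal cluster with over 20 UMIs, at 8.97 (3.28 to 34.3). The smallest cluster, of 36 Control and 42 TBI cells with a mean mitochondrial share of 14.7%, had no Pycard UMI in either library. Without the Sema5a-led cluster the ratio over the neuroblast stages was 3.55.

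A set of 163 neuronal cells led by hemoglobin genes stayed unnamed and was left out of the stages. Its median was 1577 UMIs and its mean mitochondrial share 28.95%. It had 1 Pycard UMI in Control and 14 in TBI, or 11.4 and 85.0 CPM, a ratio of 7.44 (1.13 to 315). The Reln neuron-like cells, outside the granule lineage, were 1 cluster led by Meg3, Snhg11 and Ndnf. They had 1 UMI in 28 Control cells and 11 UMIs in 75 TBI cells, a ratio of 6.22 with an interval of 0.904 to 268. Neither gives more than a direction at this depth.

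Among genes with at least 20 UMIs over both libraries, 3.08% were higher in TBI by at least 1.5-fold in the neuroblast stages summed and 4.25% were lower by as much. Of the members, 4 had that many UMIs there. Pycard was past 1.5-fold, and Il18, Il33 and Gsdmd were between the limits. The Il33 value, 0.804, was 3.07 with called doublets left out, 3.13 without integration and 2.32 without the Sema5a-led cluster. Of the 12193 genes compared, 21 had a ratio at least as high as that of Pycard, itself included. In the early neuroblast-like cells 6.03% of genes were higher and 4.13% lower, and Pycard and Gsdmd were the higher ones of 3 members, Gsdmd with 12 and 29 UMIs and an interval of 0.763 to 3.32 around its ratio of 1.54. In the Ebf1-led cluster 4.32% were higher and 5.66% lower, and Pycard was the higher one of 3. In the late neuroblast-like cells 3.08% were higher and 5.82% lower, with Pycard higher and Il33 lower of 4. Since the members were chosen with these levels known, nothing is read from these counts.

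The Pycard UMIs of the neuroblasts were spread over many cells. A Pycard UMI was found in 26 of 614 Control cells (4.23%) and in 137 of 1062 TBI cells (12.9%), although the TBI cells were shallower, with a median of 8476.5 UMIs against 11088. All 26 Control cells held a single Pycard UMI, and of the TBI cells 123 held 1, 13 held 2 and 1 held more. With every cell thinned to 2000 UMIs, leaving out 3 shallower Control cells and 2 TBI cells, the shares were 0.655% in Control (4 of 611 cells, 0.179 to 1.67%) and 3.30% in TBI (35 of 1060 cells, 2.31 to 4.56%). At the same depth the oligodendrocyte-like cells, which should lack the gene, gave 0.181% in Control (1 of 552 cells, 0.00459 to 1.005%). In TBI they gave 0.292% (3 of 1027 cells, 0.0603 to 0.851%). Their median depths before thinning were 10251.5 and 8572 UMIs. Their unthinned shares were 0.699% and 1.43%, and their Pycard ratio of TBI to Control was 2.58 (4 and 16 UMIs, 0.834 to 10.6). The thinned Control interval of the neuroblasts, which starts at 0.179%, reaches the oligodendrocyte share, so a low true level and background could not be separated in Control at that depth. Without thinning, the Control interval was 2.78 to 6.14% in the neuroblasts and 0.191 to 1.78% in the oligodendrocyte-like cells, and these did not overlap.

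In the RG-like cells the same thinning gave 13.01% of Control cells (8.02 to 19.6%) and 12.7% of TBI cells (8.59 to 17.8%) with a Pycard UMI, and the unthinned shares were 45.9% and 36.65%. In the cycling progenitor-like cells the thinned shares were 7.32% and 6.40%. The Pycard ratios in these populations were 0.840 (0.651 to 1.08) and 0.812 (0.607 to 1.08), so the libraries did not differ there beyond counting error, and a ratio as high as the lower bound for the neuroblast stages summed, 2.87, lies outside both intervals. In RG-like cells 5.53% of genes were higher in TBI and 4.25% lower by 1.5-fold, and in cycling progenitor-like cells 4.99% and 5.48%. Pycard and Il18 were between the limits in both, while Il33 was past the upper limit in RG-like cells.

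Per Pycard UMI, the neuroblasts held fewer microglial marker UMIs than the microglia-like cells did. The 8 microglia markers gave 79.0 UMIs per Pycard UMI in the microglia-like cells of Control and 88.5 in those of TBI. In the TBI neuroblast stages they gave 0.830 per Pycard UMI, with 127 marker UMIs in all and 1 of 8 markers at 0, and in the Control stages 2.92, with 76 UMIs and 3 markers at 0. The 6 markers Cx3cr1, Csf1r, P2ry12, C1qa, C1qb and Tmem119 gave 0.137 marker UMIs per Pycard UMI in the TBI stages against 70.2 in the microglia-like cells of TBI. Of the 137 TBI neuroblasts with Pycard, 2 held a UMI of those 6 markers, and the ratio was 4.33 with all such cells left out. Markers of neutrophils were at 0 in both libraries of the neuroblast stages, those of lymphocytes summed to 0 and 1 UMIs, and those of border macrophages to 3 and 5. Erythrocyte markers were lower in the TBI neuroblast stages, at 7.05 CPM in Control and 1.28 in TBI, as were the 8 oligodendrocyte markers, at 405 and 259. The part of these lists in the Pycard difference was not tested.

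The summed level of endothelial markers was higher in TBI in the same cells. The 6 of them summed to 8.30 CPM in the Control neuroblast stages (53 UMIs) and 36.1 in TBI (311 UMIs), with none at 0 in either. This level rose more than the share of cells with such a marker, given below. Mural markers stood at 10.5 and 19.3 CPM. Pycard itself had 20.8 CPM in the TBI endothelial-like cells, close to the 17.8 of the TBI neuroblasts. An endothelial marker was found in 14 of the 137 TBI neuroblasts with Pycard and in 82 of all 1062 TBI neuroblasts. In Control it was found in 4 of the 26 neuroblasts with Pycard and in 43 of all 614. With every marker-bearing cell left out the Pycard ratio was 4.69. The part of free or doublet RNA in the remaining difference was not tested. Of the neighbours of Pycard, Gm15533 had 1 and 5 UMIs in the neuroblast stages of Control and TBI, and Trim72 had none.

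In vascular cells Pycard was also higher in TBI. In mural-like cells, mostly clusters with pericyte and smooth muscle genes but also the 32 cells of a cluster led by Spp1, Dcn and Lum, which had no Pycard UMI, it had 11 UMIs in Control, 9.02 CPM, and 77 in TBI, 36.4, a ratio of 4.03 (2.13 to 8.41). As many as 65 of the 77 UMIs came from a single cluster, led by Hspa1a, Kcnj8 and Vtn, which held 39 Control and 257 TBI cells, and in which Pycard had 28.0 and 76.8 CPM. In the largest mural cluster Pycard had 2 UMIs in each library, and without the Hspa1a-led cluster the mural ratio was 1.45. In endothelial-like cells the ratio was 1.99 (14 and 45 UMIs, 1.07 to 3.92). Each endothelial-like cluster with a ratio had an interval that includes 1. The cluster led by Klf2, Klf4 and Egr3 had 1 and 12 UMIs (0.844 to 244), and the one led by Gkn3 had 7 and 18 (0.593 to 4.21). In the mural-like cells 11.2% of genes were higher and 8.83% lower by 1.5-fold, with Pycard the higher one of 4 members, and in the endothelial-like cells 6.27% and 4.84%, with Pycard and Casp4 the higher ones of 4.

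The caspases, Nlrp3 and Il1b were counted mostly in microglia. Casp1, the inflammatory caspase that ASC recruits, had 32 UMIs in all, 23 of them in the microglia-like cells. It had 47.5 CPM there in Control (9 UMIs) and 31.2 in TBI (14 UMIs), with a ratio of 0.657 (0.265 to 1.72). In the neuroblast stages it had no UMI in Control, where 3 UMIs would be 0.470 CPM, and 2 UMIs in TBI. Microglia-like cells with UMIs of both Pycard and Casp1 numbered 7 of 38 in Control and 10 of 88 in TBI, and no neuroblast of either library held both.

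Casp4, the caspase that senses intracellular lipopolysaccharide directly, had 34 UMIs in Control microglia-like cells, 180 CPM, and 107 in TBI, 239. Outside microglia it was found in endothelial-like cells, with 4 UMIs in Control and 17 in TBI (2.99 and 7.86 CPM, ratio 2.63, 0.857 to 10.7) and in mural-like cells, with 1 and 3 UMIs, and had no UMI in the progenitors and neuroblasts of either library. Nlrp3, the sensor of membrane damage and potassium loss, had 65 UMIs in Control microglia-like cells, 343 CPM, and 220 in TBI, 491. Its ratio of 1.43 (1.08 to 1.92) is the only one of a member in microglia whose interval lies wholly on one side of 1. Of all 289 Nlrp3 UMIs 98.6% were microglial, and the neuroblast stages had none.

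Il1b, the cytokine that caspase-1 matures, was found in no other population, with 14 UMIs in Control (73.9 CPM) and 55 in TBI (123), a ratio of 1.66 (0.910 to 3.23). Those UMIs were concentrated in 3 Control cells and 15 TBI cells. In the Ccl5-led cluster Pycard was high, at 527 CPM in Control and 612 in TBI. There Nlrp3 had 1 UMI in Control and none in TBI, and Il1b none and 1. In the microglia-like cells as a whole, the lymphocyte markers summed to 22 UMIs in Control and 18 in TBI. Their split between the clusters, and the part of other leukocytes in the Ccl5-led one, was not tested. In microglia-like cells 13.2% of genes were higher and 13.8% lower by 1.5-fold, and of 7 members Il1b was higher and Casp1 and Il18 were lower, each with an interval that includes 1.

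**Figure D3:**
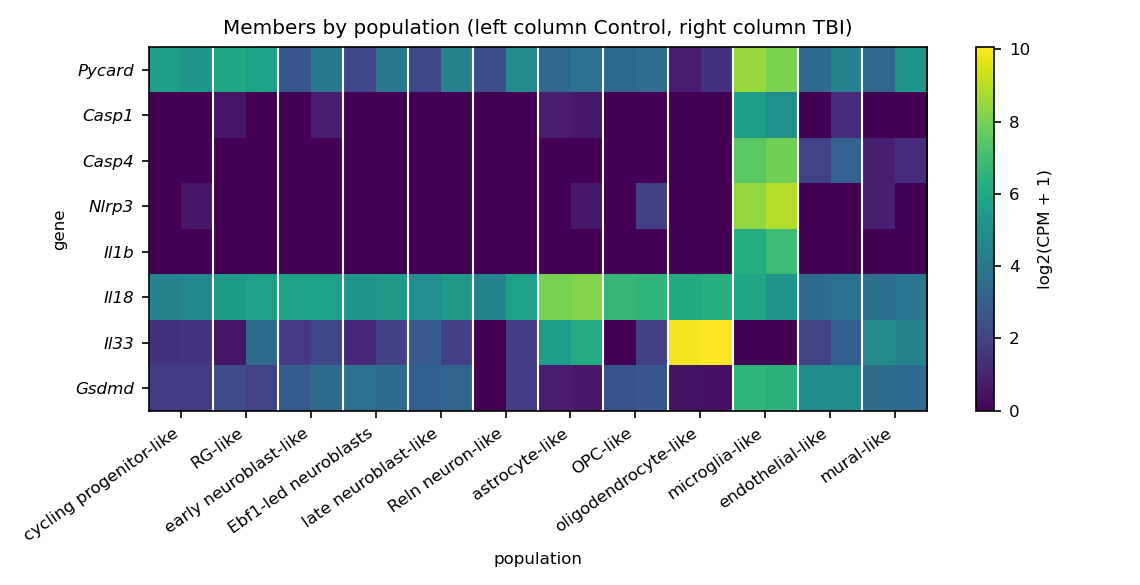
The 8 members (rows) in 12 populations (columns, Control left and TBI right of each pair) as log2 of CPM plus 1, each row to be read along itself. Casp1, Casp4, Nlrp3 and Il1b are brightest in the microglia-like columns, Il33 in the oligodendrocyte-like columns, and Pycard and Il18 are present across the lineage.

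Il18, the second cytokine that caspase-1 matures, was found in every population. Its level was highest in astrocyte-like cells, at 265 CPM in Control (767 UMIs) and 296 in TBI (537 UMIs). OPC-like cells followed at 102 and 95.8 and oligodendrocyte-like cells at 68.4 and 77.4. In the neuroblast stages it had 38.4 CPM in Control (245 UMIs) and 45.1 in TBI (388 UMIs), a ratio of 1.17 (0.999 to 1.38). In the late neuroblast-like cells the ratio was 1.42 (85 and 154 UMIs, 1.09 to 1.88), and 1.05 without the Sema5a-led cluster. In microglia-like cells, which held most Casp1 UMIs, Il18 had 11 and 16 UMIs, or 58.1 and 35.7 CPM. That level was 1.33 times the RG-like level in Control (0.643 to 2.50) and 0.717 times in TBI (0.397 to 1.21).

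Gsdmd, whose product forms the pyroptotic pore, was highest in microglia-like cells, with 95.1 CPM in Control (18 UMIs) and 87.0 in TBI (39 UMIs), followed by endothelial-like cells at 28.4 and 29.1. The neuroblast stages carried 37.3% of its 370 UMIs, at 8.45 CPM in Control (54 UMIs) and 9.76 in TBI (84 UMIs), with a ratio of 1.15 (0.810 to 1.66). It ran opposite to Pycard along the lineage. The RG-like level was 0.463 times that of the neuroblast stages in Control (0.190 to 0.979) and 0.288 times in TBI (0.112 to 0.620). In astrocyte-like and oligodendrocyte-like cells Gsdmd had at most 3 UMIs in either library.

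Il33 was an oligodendrocyte gene here, with 97.1% of its 15223 UMIs in oligodendrocyte-like cells. It had 935 CPM there in Control (5331 UMIs) and 1070 in TBI (9445 UMIs), a ratio of 1.145 (1.11 to 1.18). The oligodendrocyte clusters ranged from 231.5 to 1315 CPM in Control and from 287 to 1543 in TBI, and 4 of 7 had a ratio above 1 beyond counting error, 1 a ratio below 1 beyond it, and 2 neither. A cluster that held 37 Control and 231 TBI cells had 1321 CPM in TBI, and without it the ratio was 1.075. In oligodendrocyte-like cells 5.84% of genes were higher and 3.44% lower by 1.5-fold, and of 3 members Pycard was the higher one, with 4 and 16 UMIs and an interval of 0.834 to 10.6.

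Astrocyte-like cells were the second population for Il33, with 130 UMIs in Control, 44.9 CPM, and 131 in TBI, 72.1. The ratio was 1.61 (1.25 to 2.07), and the UMIs were spread over 89 Control and 99 TBI cells. Among genes in these cells 3.62% were higher and 6.6% lower by 1.5-fold, and of 3 members Il33 was the higher one. Vascular Il33 had 34 and 46 UMIs in mural-like cells, of which 19 and 28 came from the 32 cells of a cluster led by Spp1, Dcn and Lum, genes of vessel-associated fibroblasts.

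In the lineage Il33 rested on few droplets. The RG-like cells had 1 Il33 UMI in Control and 25 in TBI, a ratio of 20.5 (3.36 to 842), but 21 of the 25 came from 2 cells. Those cells held 10 and 11 Il33 UMIs beside 29 and 23 UMIs of the myelin gene Mog, and Scrublet called both doublets. In the late neuroblast-like cells of Control 17 of 18 Il33 UMIs came from 1 cell with 18 Mog UMIs, also called a doublet. The ratio of 0.436 in that population was 7.66 with called doublets left out, from 1 Control UMI.

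**Figure D4:**
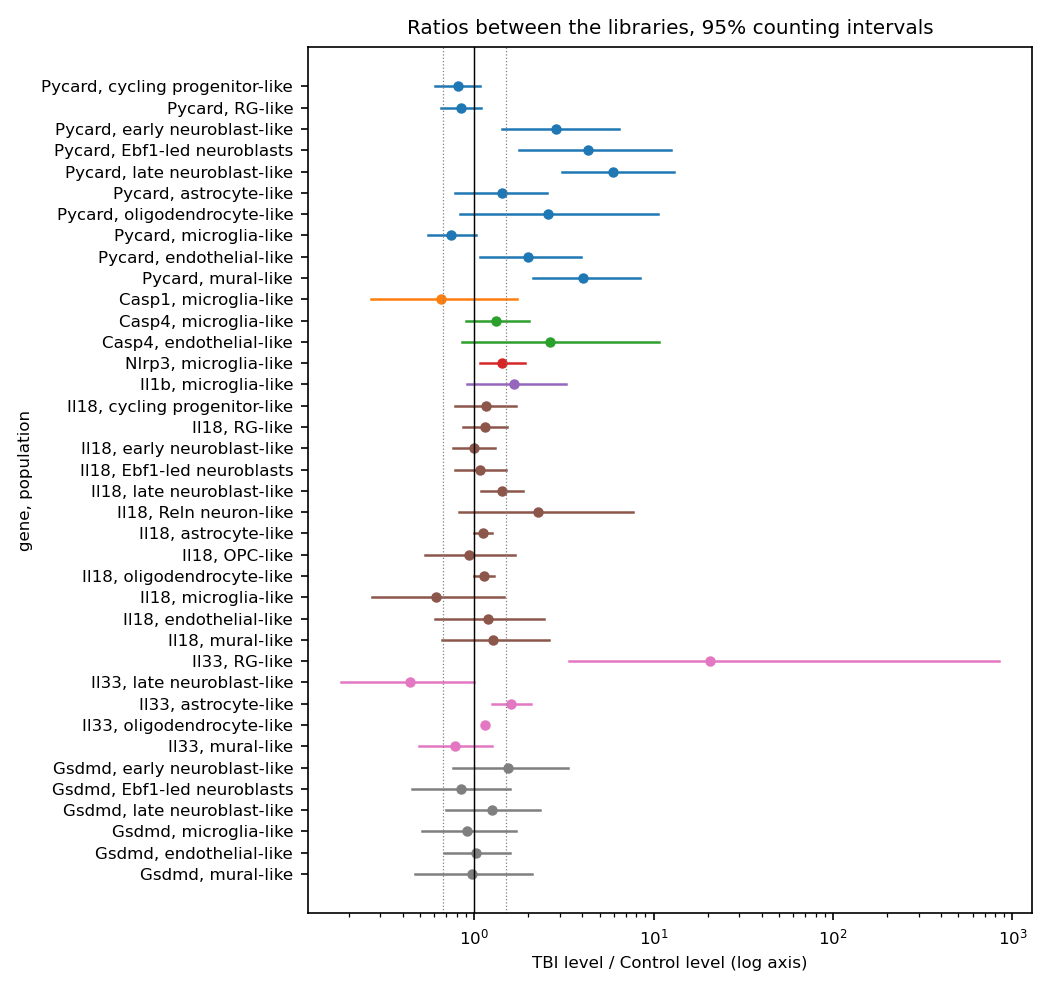
Ratio of the TBI to the Control level (log axis) for every member and population with at least 20 UMIs over both libraries and UMIs in each, with points for the ratio and lines for the 95% counting interval, and dotted lines at 1.5-fold either way. Pycard intervals lie above 1 in the neuroblast stages, mural-like and endothelial-like cells and include 1 in the progenitors and microglia, and the 2 Il33 values in lineage cells rest on 3 droplets.

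Of 67 genes listed for the pathway, the members included, 65 were in the matrices and 22 of them had no UMI in the neuroblast stages. Those with at least 20 UMIs numbered 25, with a median ratio of 1.01 against 0.992 over all genes. Apart from the members, 1 of 21 was higher by 1.5-fold, Il18bp, and 1 was lower, P2rx7, beside 3.08% and 4.25% of all genes, so these counts are near the background. Of 17 sensors 9 had no UMI there, and Aim2 was the single one with 20.

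By level, the leading pathway genes given here for the neuroblast stages were general ones. Hmgb1, a chromatin protein that is an alarmin when released, had 1098 CPM in Control and 1077 in TBI. Casp2, an initiator caspase, had 43.2 and 39.4. Txnip, a redox protein that can bind Nlrp3, had 172 CPM in both libraries, and the NF-kappaB inhibitor Nfkbia 51.8 and 59.4. The membrane channel gene Panx1 had 45.2 and 42.7. Each of these 5 had a ratio between 0.911 and 1.15 with an interval that includes 1.

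Other sensors and receptors were near the limit of counting in the neuroblast stages. Nlrx1, a mitochondrial member of the NLR family, had 5 UMIs in Control and 9 in TBI, and Il1rap, the shared co-receptor of interleukin-1 and interleukin-33, had 21 in each. Zbp1, a sensor of Z-form nucleic acids, had no UMI in Control and 10 in TBI, at least 2.47-fold higher in TBI when 3 UMIs are set for the Control library. None of these counts exceeded 21 UMIs.

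In microglia-like cells 26 listed genes had at least 20 UMIs, with a median ratio of 0.9475 against 0.985 over all genes, and 3 were higher and 7 lower by 1.5-fold, beside the 13.2% and 13.8% of all genes given above. Nfkb1, a subunit of NF-kappaB, had 217 CPM in Control and 448 in TBI, a ratio of 2.07 (1.47 to 2.97). Its inhibitor Nfkbia had 2525 and 3090, a ratio of 1.22 (1.10 to 1.36). Txnip had 586 and 339, a ratio of 0.578 (0.450 to 0.745). The cytokines Il1a and Tnf had ratios of 1.025 (0.844 to 1.25) and 1.05 (0.808 to 1.37), Hmgb1 had 0.9805, and Aim2 had 30 and 44 UMIs with a ratio of 0.619 (0.381 to 1.02). Il1a and Tnf stood at 776 and 438 CPM in Control, where the mice had a sham craniotomy only.

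The genes whose pattern was most like that of Pycard were found by Pearson correlation of log2(CPM + 1) across the 11 named populations in both libraries, 22 points that share 2 libraries. Among 13128 genes the 10 nearest were Mtr (r = 0.865), Nfkbil1 (0.856), Lpin2, Ddx5, Cd68, Sf1, Hspa5, Azin1, Rgs19 and Gem (0.809). They have high levels in microglia-like cells and lower ones in oligodendrocyte-like cells, as Pycard does, and range from the lysosomal macrophage gene Cd68 to the splicing factor Sf1. Aim2 ranked 65 (r = 0.726), Nlrp3 175, Casp4 182 and Gsdmd 310, while Il18 (r = -0.139) and Il33 (r = -0.592) were unlike it. By rank correlation 3 of the 10 nearest genes were the same, so the list depends on the measure of likeness.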

How the data were processed

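Nestin-GFP+ cells of pooled dentate gyri were profiled with the 10x Genomics 3′ kit. The deposited matrices hold raw UMI counts per gene and barcode, which the authors made with Cell Ranger 3.0.2 on GRCm38 (mm10). The condition of each matrix was settled from barcodes that the study lists by condition. All 356 Control and 320 TBI barcodes were found in 1 matrix and none in the other. The matrices shared 3 barcodes.

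Barcodes with fewer than 200 genes, or whose log UMI count lay more than 3 scaled median absolute deviations from the library's median, were removed. Called doublets (Scrublet in scanpy 1.11.5, 1.25% of Control and 2.16% of TBI cells) were kept in the main analysis. Clustering (Seurat 5.3.0) followed the study's settings, with canonical correlation, 2000 variable genes and resolution 3, then 0.8 for lineage cells, but left Malat1 and the pathway genes out of the variable genes. Clusters took the class with the highest mean standardized marker level. Named genes were the 8 members, the 6 highest listed genes in neuroblasts and in microglia, sensors and receptors with at least 10 UMIs in neuroblasts, the 10 genes most like Pycard and its annotated neighbours. Some of these are not reported here. Il18bp and P2rx7, the clusters left out and the promoter motifs were chosen after values were seen. The members and lists were chosen with earlier results of these data known. Intervals are exact Poisson, conditional binomial (ratios) and Clopper-Pearson (shares). With 1 library per condition no test was run. The scripts were tested on simulated counts.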

Additional observations from a re-analysis of the deposited data

Results flagged for a closer look

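Il33 differed in opposite directions in 2 lineage populations with called doublets kept, and the difference was not tested. Its ratio of TBI to Control was 20.5 in RG-like cells and 0.436 in late neuroblast-like cells. Beside these stand the droplets described above, since 21 of 25 Il33 UMIs in the first and 17 of 18 in the second came from cells called doublets that held 18 to 29 Mog UMIs each. The remaining cells held 4 Il33 UMIs in RG-like cells of TBI and 1 in late neuroblast-like cells of Control. With called doublets left out, the late neuroblast-like ratio was 7.66, no longer opposite to the reported RG-like one, from 1 Control UMI.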

How the results depend on the processing

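No paired analysis was possible because each condition is 1 library of pooled animals. Over 12 alternatives the Pycard ratio ranged from 3.55 to 4.86 in the neuroblast stages summed and 3.88 to 9.22 in the late cells, and over 11 from 2.68 to 4.40 in the early and 2.985 to 6.26 in the Ebf1-led cells, which are 1 cluster each in the reported grouping, all within the counting interval of the reported value. The values 2.985 and 9.22 came from the run without integration. There the cluster counted as Ebf1-led held 597 cells led by Zfp385b, Stmn2 and Neurod2, so these stages did not hold the same cells. The Pycard ratio stayed below 1 in RG-like cells (0.776 to 0.871), cycling progenitor-like cells (0.756 to 0.845) and microglia-like cells (0.695 to 0.831). Added after the data were seen were 3 of them, namely leaving out cells with microglial markers, cells with endothelial markers, or 1 cluster of a class (late neuroblast-like, microglia-like, mural-like and oligodendrocyte-like cells). Il33 in late neuroblast-like cells reversed from 0.436 to 7.66 without called doublets and to 4.82 without the Sema5a-led cluster, and without integration it had no Control UMI and gave no ratio. The share of neuroblasts with a Pycard UMI depends on depth by construction. It was 0.163% in Control and 1.6% in TBI at 1000 UMIs per cell, 4.23% and 12.9% without thinning, and 2.29% in TBI at 2000 UMIs without the Sema5a-led cluster. With at least 50 UMIs per gene, 1.30% of genes were higher and 2.46% lower in the neuroblast stages. Of the 10 genes most like Pycard, 3 were shared by rank correlation. Of 2368 levels under the alternatives, 62 moved beyond their counting interval. Without replicate libraries, spread between animals cannot be told apart from any difference given here.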
